A study of Mus musculus with 48 samples.

Results

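The bile acid handling genes examined in mouse colon were 8 genes chosen by symbol: *Slc10a2*, *Slc51a*, *Slc51b*, *Fabp6*, *Nr1h4*, *Nr0b2*, *Fgf15* and *Gpbar1*. Each symbol matched 1 Ensembl identifier in the GENCODE vM21 annotation, so the set makes up 8 of the 55401 genes in the table of read counts. Expression was measured by RNA sequencing of colon tissue, its segment not stated, from 48 male C57BL/6J mice. The mice were killed at 18 to 20 weeks of age on the second day of constant darkness. There were 4 mice at each of 6 circadian times (CT1, CT5, CT9, CT13, CT17 and CT21) in each of 2 genotypes. The *Bmal1*IEC-/- mice (*Bmal1*fl/fl x Villin CRE/wt) lack the clock gene *Bmal1* in intestinal epithelial cells, because the Villin promoter drives Cre there, and the controls were *Bmal1*fl/fl x Villin wt/wt littermates. Both genotypes therefore carry the floxed *Bmal1* alleles, all mice were singly housed with a running wheel and free access to chow, and the other cells of the colon wall keep *Bmal1*. The comparison asks whether the level or the daily rhythm of these genes differs when the epithelial clock is missing.

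Bile acids are made from cholesterol in the liver, released into the gut with bile and largely returned to the liver by the intestine. In the epithelium, the apical sodium-dependent transporter encoded by *Slc10a2* takes bile acids up, the cytosolic protein encoded by *Fabp6* binds them, and the organic solute transporter, built from the products of *Slc51a* and *Slc51b*, passes them out at the basolateral side. The nuclear receptor FXR (*Nr1h4*) senses bile acids in the nucleus, *Nr0b2* (SHP) and the hormone gene *Fgf15* are its classical targets, and *Gpbar1* (TGR5) encodes a bile acid receptor at the cell surface. The full set is best known from the terminal ileum, where active uptake is concentrated.

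Library totals ran from 3144997 to 4785844 reads assigned to genes. In 46 of the 48 mice *Arntl*, which encodes BMAL1, had group means from 26.4 (CT9) to 260.0 (CT1) normalized counts in controls and from 114 (CT9) to 177 (CT1) in *Bmal1*IEC-/- mice, with single mice between 15.9 and 286 and between 85.8 and 182, and its rhythm changed between genotypes (edgeR adjusted p = 4.07e-13), whereas its mean level did not pass the test (log2 difference 0.32, SE 0.17, edgeR adjusted p = 0.251). That count covers the whole gene and all cells of the tissue, so it does not measure the deletion alone. The BMAL1 target *Nr1d1* was lower in *Bmal1*IEC-/- colon by 1.49 on the log2 scale. The *Bmal1*IEC-/- mice SV384 and SV385 of CT1 are outside the 46 mice of the study's analysis. Summed smooth muscle markers set SV385 apart, at 613 CPM (counts scaled to library size) against 2584 to 4481 in the 46. SV384, at 2606, lay inside that range. Summed colon epithelium markers were 10571 to 15930 in the 46, just above that range in SV384 (16030) and further above it in SV385 (17882). SV384 and SV385 had 86 and 84 reads of *Arntl*, against 163 and 177 in the other *Bmal1*IEC-/- mice of CT1. The main tests used the 46 mice, and results that change with all 48 are given with both.

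In GRCm38 (mm10) coordinates of GENCODE vM21, the transporter genes lie at chr8:5083219-5105351 (*Slc10a2*, minus strand), chr16:32474504-32487879 (*Slc51a*, minus) and chr9:65412714-65422955 (*Slc51b*, minus), and the binding protein gene at chr11:43596049-43601540 (*Fabp6*, minus). The receptor genes lie at chr10:89454234-89533585 (*Nr1h4*, minus) and chr1:74278550-74279624 (*Gpbar1*, plus), and the FXR targets at chr4:133553376-133556536 (*Nr0b2*, plus) and chr7:144896531-144900953 (*Fgf15*, plus). Each is a protein-coding gene counted over its exons.

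*Slc10a2* and *Slc51a* are the members whose level changed past both thresholds below, so the genomic sequence upstream of their start sites is shown here from RefSeq windows on GRCm38.p6 (250 bases before to 50 after the start), in the direction of the gene. RefSeq held such a window for 7 of the 8 members, and not for *Fgf15*. Positions count from the RefSeq start, which can differ from the GENCODE gene ends above. For *Slc10a2* (window chr8:5105238-5105537) the GENCODE gene begins upstream of that start. Only bases outside annotated exons are printed. Capitals mark matches, on both strands, to the E-box CACGTG, which BMAL1 and CLOCK bind, the variant CACGTT, the D-box TTATGNAA, the hexamer AGGTCA of many nuclear receptors and the HNF1 core GTTAAT. The upper run lies at chr8:5105352-5105537 and the lower at chr16:32487880-32488129, both read from the minus strand.
Slc10a2: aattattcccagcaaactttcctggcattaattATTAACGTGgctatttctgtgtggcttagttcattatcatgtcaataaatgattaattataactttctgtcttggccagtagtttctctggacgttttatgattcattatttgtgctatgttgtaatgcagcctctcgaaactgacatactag
Slc51a: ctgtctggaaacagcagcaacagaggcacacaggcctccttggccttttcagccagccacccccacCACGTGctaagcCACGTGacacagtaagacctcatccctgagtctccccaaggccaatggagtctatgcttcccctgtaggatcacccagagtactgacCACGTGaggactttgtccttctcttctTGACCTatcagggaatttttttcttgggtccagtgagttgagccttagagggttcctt
In the *Slc51a* window the E-box occurred 3 times, at bases -184, -172 and -85 from the start. An E-box was present in 7.17% of the 32544 RefSeq promoter windows of the same length, and 3 or more in 0.0891%. The AGGTCA hexamer (16.2% of windows) occurred on the opposite strand at -58. The *Slc10a2* window held no E-box but the variant CACGTT on the opposite strand at -214 and at -38. The match at -38 lies outside the printed run and within the gene as annotated by GENCODE. At least 1 variant was present in 4.71% of windows and at least 2 in 0.114%. At -217 the *Slc10a2* window also held the HNF1 core (7.13% of windows), which overlaps the variant at -214. Of the other members, the E-box was found in *Nr0b2* at -195, the AGGTCA hexamer in *Slc51b* at -203 and *Nr1h4* at -214, and the HNF1 core in *Nr1h4* at -40. The *Nr1h4* window (chr10:89506609-89506908) lies inside the GENCODE gene, so its matches belong to an internal start. The D-box (3.39% of windows) was found in none of the 7 windows.

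The levels of the 8 genes fell into distinct ranges, compared here as RPKM, the read count divided by exon length and library size. In controls *Slc10a2* stood highest at a mean of 81.8 ± 25.3 (SD, n = 24 mice), followed by *Nr1h4* at 64.5 ± 8.84, *Slc51b* at 42.0 ± 7.99 and *Slc51a* at 38.2 ± 6.83. In *Bmal1*IEC-/- colon the order of means was *Nr1h4* at 78.5 ± 12.4 (n = 22), *Slc51a* at 58.0 ± 9.37, *Slc10a2* at 50.5 ± 13.2 and *Slc51b* at 47.6 ± 9.18. The ranges of single mice overlapped between neighbours in both orders, so *Slc51a*, lowest of the 4 in controls, had the second highest mean in *Bmal1*IEC-/- colon without separating from its neighbours. *Fabp6* lay below these 4 at 4.85 ± 2.03 in controls and 6.33 ± 6.48 in *Bmal1*IEC-/- colon. *Gpbar1*, *Nr0b2* and *Fgf15* were close to 0 in both genotypes. RPKM used all exon bases, although reads that overlapped several features were not counted. Of these bases, 567 of 3198 in *Slc51a* and 91 of 709 in *Slc51b* are shared with a gene on the opposite strand. The RPKM of *Slc51a* and *Slc51b* may therefore be too low, which could change their place in the order of means.

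**Figure D1:**
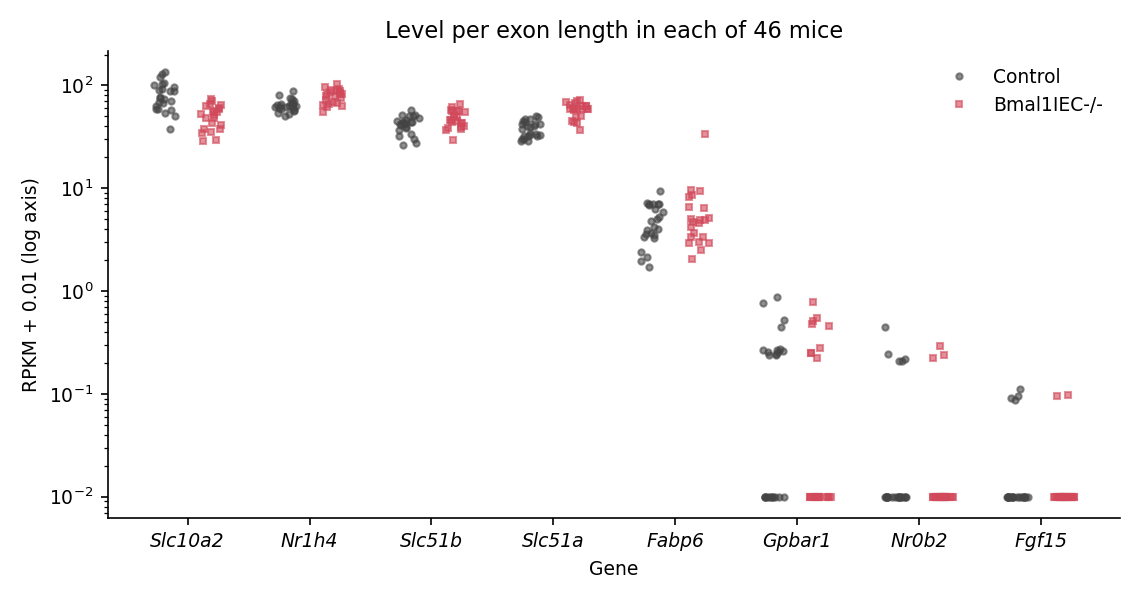
Level of each bile acid handling gene in each of the 46 mice, as RPKM + 0.01 on a log axis, with controls as grey circles and *Bmal1*IEC-/- mice as red squares. *Slc10a2*, *Nr1h4*, *Slc51b* and *Slc51a* form the upper group, *Fabp6* lies lower with 1 *Bmal1*IEC-/- mouse at 33.6 RPKM, and points at 0.01 are mice with a count of 0.

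The FXR target genes *Nr0b2* and *Fgf15* and the receptor gene *Gpbar1* were at the edge of detection. *Fgf15* had a count of 1 in 6 mice (4 controls and 2 *Bmal1*IEC-/-) and of 0 in the other 42. *Nr0b2* had a count of 0 in 39 of the 48 mice and at most 2. *Gpbar1*, with a total of 36 reads in all 48 libraries, reached at most 4 and was at 0 in 25 mice. A count of 0 allows up to 3 counts, which is 0.627 CPM in the deepest library and 0.954 in the shallowest, so a difference between genotypes in these 3 genes was not detectable at this depth. These 3 were too low to be kept for testing, and 787 of the 3058 exon bases of *Fgf15* are shared with *Gm26793* and *Gm39119* on the opposite strand. The other 5 members were kept.

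Over all times, 2 of the 5 tested members passed an adjusted p of 0.05 together with a fold change over 1.5, the threshold at which 1.39% of the 15073 tested genes were called. The members were chosen with earlier results of these data known, so the 2 shares do not test the set. The uptake transporter *Slc10a2* was lower and the exporter subunit *Slc51a* was higher in *Bmal1*IEC-/- colon. At adjusted p alone, which 10.5% of tested genes passed, *Nr1h4* was called as well. The median log2 difference was 0.27 over the 5 members and -0.000478 over all tested genes. In whole tissue, fewer cells of a type and less RNA per cell cannot be told apart.

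*Slc10a2* had 592 normalized counts in the lowest control mouse, a median of 1216 and 2160.1 in the highest, against 465, 836 and 1194 in *Bmal1*IEC-/- mice. Of the 24 controls, 13 lay above every *Bmal1*IEC-/- mouse, and the mean was lower in *Bmal1*IEC-/- colon at 6 of 6 times. The share of all genes with such a separation of mice, here and below, was not computed. The mean fell from 1308 ± 408 (SD, n = 24) to 810.0 ± 214 (n = 22), a log2 difference of -0.66 (SE 0.084, edgeR adjusted p = 7.12e-08).

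The 2 genotypes differed most in *Slc10a2* between CT9 and CT17. At CT9 the controls had 1384, 1618, 1919 and 2073 normalized counts and the *Bmal1*IEC-/- mice 589, 756, 1103 and 1194. At CT13 the controls had 1592, 1639, 1710.0 and 2160.1 and the *Bmal1*IEC-/- mice 677, 831, 1027 and 1059. At both times every *Bmal1*IEC-/- mouse lay below every control, with log2 differences of -0.95 (SE 0.17, edgeR adjusted p = 0.000251) and -0.98 (SE 0.17, edgeR adjusted p = 0.000108). CT17 showed the same separation, with 947, 971, 1124 and 1207 in controls against 465, 466, 575 and 639, a log2 difference of -0.99 (SE 0.17, edgeR adjusted p = 0.000305). Among all tested genes 1.78% were called at CT9, 4.43% at CT13 and 1.05% at CT17.

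At the other times the difference in *Slc10a2* did not pass the test. At CT5 the controls had 997, 1067, 1225 and 1460.4 normalized counts and the *Bmal1*IEC-/- mice 841, 875, 906 and 966, which do not overlap, but the log2 difference of -0.41 (SE 0.17) had an edgeR adjusted p of 0.618 in a contrast that called 0.445% of genes. At CT1 the controls had 1089.6, 1179, 1428 and 1434 and the 2 *Bmal1*IEC-/- mice 983 and 1039 (log2 difference -0.35, SE 0.21, edgeR adjusted p = 0.403), and 1.21% of genes were called. Mouse SV384, outside the 46, had 1137, inside the control range, and SV385 had 1046. At CT21 the genotypes overlapped, with 592, 803, 861 and 917 in controls and 557, 609, 780.1 and 881 in *Bmal1*IEC-/- mice (log2 difference -0.17, SE 0.17, edgeR adjusted p = 0.877), and 0.378% of genes were called.

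**Figure D2:**
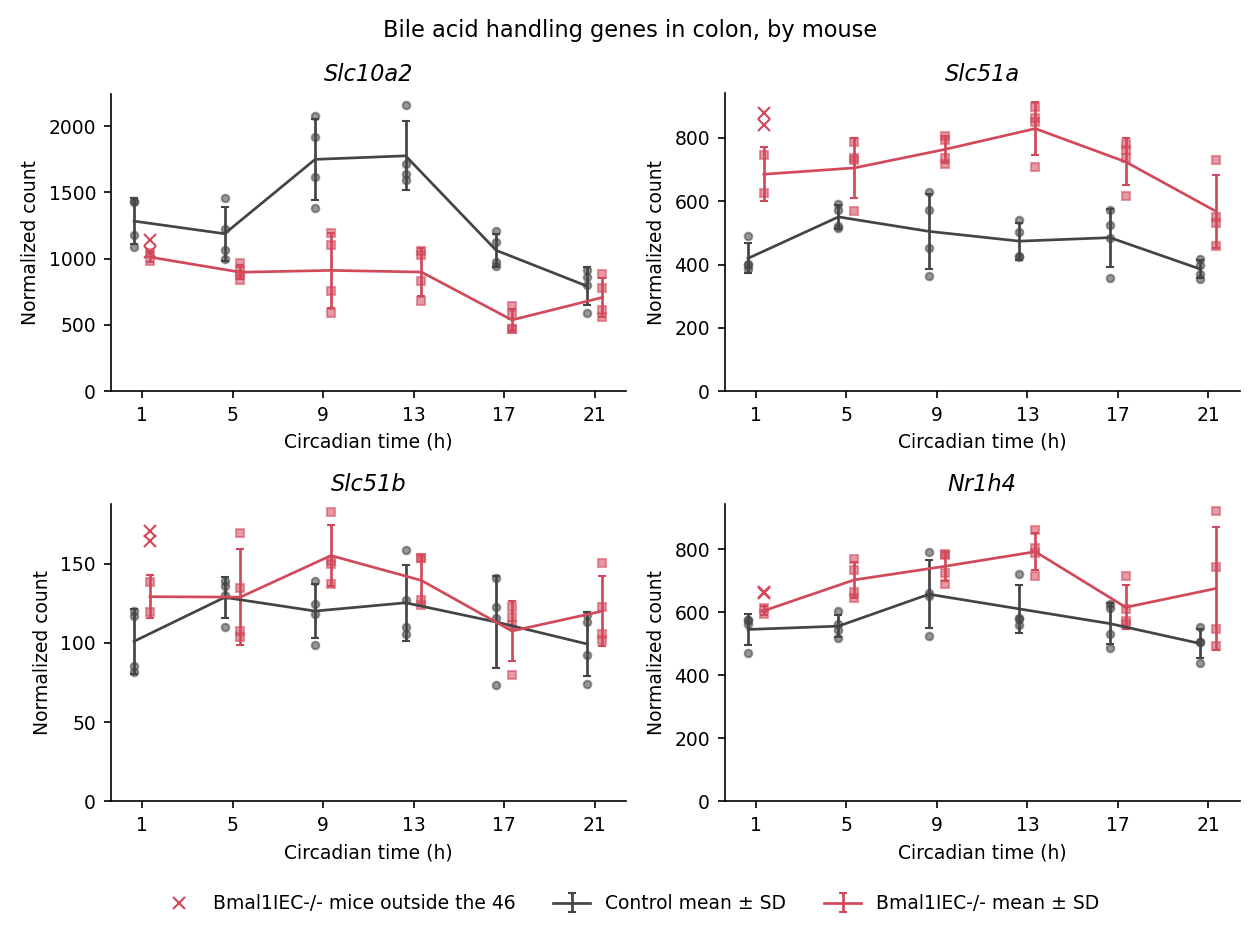
Normalized count of *Slc10a2*, *Slc51a*, *Slc51b* and *Nr1h4* (vertical axes) against circadian time in hours, with controls in grey and *Bmal1*IEC-/- mice in red. Small points are single mice, lines join group means with SD bars, and crosses are the 2 *Bmal1*IEC-/- mice outside the 46, whose counts were scaled over 48 mice. The control curve of *Slc10a2* rises to 1748 at CT9 and 1775 at CT13, where the *Bmal1*IEC-/- means are 911 and 898.

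*Slc51a* went the other way. It had 354 normalized counts in the lowest control, a median of 469 and 629 in the highest, against 458, 736 and 897 in *Bmal1*IEC-/- mice. Of the 22 *Bmal1*IEC-/- mice, 16 lay above every control. The mean rose from 469.9 ± 83.8 (SD, n = 24) to 715 ± 113 (n = 22), a log2 difference of 0.59 (SE 0.058, edgeR adjusted p = 5.46e-11), and it was higher at 6 of 6 times. The rise sits at the fold threshold of 1.5, which is 0.585 on the log2 scale: leaving out any 1 of 9 mice (SV395, SV397, SV398, SV412, SV424, SV449, SV450, SV471 and SV480) put it below, at 0.572 to 0.584, while the adjusted p stayed at or under 2.46e-10 in all 46 such fits.

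By time, the lowest *Bmal1*IEC-/- mouse exceeded the highest control in *Slc51a* at 5 of 6 times, among them CT1 with 2 *Bmal1*IEC-/- mice. The share of all genes that separate in this way was not computed. At CT13 the controls had 423, 427, 504 and 541 normalized counts and the *Bmal1*IEC-/- mice 709, 851, 862 and 897 (log2 difference 0.81, SE 0.13, edgeR adjusted p = 7.38e-05). At CT9 the values were 365, 453, 572 and 629 against 717, 738, 793 and 808 (log2 difference 0.59, SE 0.13, edgeR adjusted p = 0.00868). At CT17 they were 359, 484, 526 and 572 against 617, 736, 763 and 782 (log2 difference 0.58, SE 0.13, edgeR adjusted p = 0.0140). Those 3 times were called, and so was CT1, with 387, 399, 402 and 489 against 626 and 745 (log2 difference 0.70, SE 0.16, edgeR adjusted p = 0.0225). The calls at CT1, CT9 and CT17 depended on single mice: adjusted p exceeded 0.05 at CT1 without the controls SV454, SV455 or SV468 (0.0538 to 0.0621), reached 0.0903 at CT9 without SV412, and lay between 0.0532 and 0.130 at CT17 without SV398, SV416 or SV481. Leaving out SV479 or SV480 left 1 *Bmal1*IEC-/- mouse at CT1, assumed to vary like the mice of the other groups, and gave adjusted p of 0.106 and 0.316.

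Differences in *Slc51a* at CT5 and CT21 did not pass. CT21 was close, with 354, 369.7, 399 and 419 in controls, 458, 530.0, 550.0 and 732 in *Bmal1*IEC-/- mice, a log2 difference of 0.56 (SE 0.14) and an edgeR adjusted p of 0.0505, which fell below 0.05 in 13 of the 46 fits without 1 mouse (lowest 0.0217, without SV444). At CT5 the lowest *Bmal1*IEC-/- mouse, at 569, lay within the control range of 515 to 592 (log2 difference 0.35, SE 0.13, edgeR adjusted p = 0.520). Of the 3198 exon bases of *Slc51a*, 567 are shared with *Pcyt1a* on the opposite strand. *Pcyt1a* had a mean of 384 normalized counts in controls and 454 in *Bmal1*IEC-/- colon (log2 difference 0.25, SE 0.040, edgeR adjusted p = 1.55e-05). Reads that overlapped several features were not counted, and the strand setting of the counting is not given. The effect of the shared bases on the *Slc51a* difference was not tested.

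The partner subunit *Slc51b* had 73.2 normalized counts in the lowest control, a median of 117 and 159 in the highest, against 79.9, 125 and 182 in *Bmal1*IEC-/- mice. The genotypes overlapped at all 6 times, and 2 of 22 *Bmal1*IEC-/- mice lay above every control. The means were 115 ± 21.9 (SD, n = 24) and 130.2 ± 24.6 (n = 22), a log2 difference of 0.17 (SE 0.074) with an edgeR adjusted p of 0.148. *Rasl12*, which shares 91 of the 709 exon bases of *Slc51b* on the opposite strand, had an edgeR adjusted p of 0.995.

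Mice SV384 and SV385, outside the 46, decided the call in *Slc51b*. They had 170.5 and 164 normalized counts, above the CT1 controls at 80.8 to 119. With all 48 mice the log2 difference over all times was 0.22 (edgeR adjusted p = 0.0497, under the fold threshold), and at CT1 it was 0.57 (edgeR adjusted p = 0.0185) against 0.34 (edgeR adjusted p = 0.449) without them. That CT1 contrast over 48 mice called 3653 of 15073 genes, against 183 in the 46.

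The nuclear receptor gene *Nr1h4* had 440.0 normalized counts in the lowest control, a median of 561 and 791 in the highest, against 492, 716 and 920.4 in *Bmal1*IEC-/- mice. The genotypes overlapped widely, with 3 of 22 *Bmal1*IEC-/- mice above every control, but the mean was higher at 6 of 6 times. It rose from 572 ± 78.9 (SD, n = 24) to 697 ± 109 (n = 22), a log2 difference of 0.27 (SE 0.053, edgeR adjusted p = 0.000271), below the fold threshold. The 2 *Bmal1*IEC-/- mice of CT1 lay above every control (595 and 615 against 470.4 to 575), but the edgeR adjusted p was 0.701. At CT5 the groups did not overlap either (647 to 768 against 517 to 603), with an edgeR adjusted p of 0.516. How many of all genes separate in this way was not computed, and no single time passed for *Nr1h4*. Its log2 differences ran from 0.12 at CT17 to 0.43 at CT21, with edgeR adjusted p from 0.0737 (CT13) to 0.943 (CT17), and adjusted p fell below 0.05 at CT13 without SV421, SV444 or SV470 (0.0296 to 0.0475) and at CT21 without SV470 (0.0217).

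*Fabp6* was counted between 3 and 18 times in 47 mice and 77 times in the *Bmal1*IEC-/- mouse SV395 of CT13. The 4 *Bmal1*IEC-/- mice of CT13 had 6.17, 7.68, 9.29 and 62.2 normalized counts and the controls 3.13, 3.69, 7.54 and 7.61. The call at CT13 (log2 difference 1.98, SE 0.54, edgeR adjusted p = 0.0225) was lost without SV395 (0.50, edgeR adjusted p = 0.682), and also without the controls SV396 (1.82, edgeR adjusted p = 0.0872) or SV421 (1.79, edgeR adjusted p = 0.0625). Over all times *Fabp6* had a log2 difference of 0.37 (SE 0.25, edgeR adjusted p = 0.395), which was 0.07 without SV395.

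Some but not all of the small intestine genes examined were also high in library SV395, the deepest of the 48 at 4785844 reads. Its 77 reads of *Fabp6* are 16.1 CPM, against 0.813 to 4.55 in the other 47 mice. *Gata4*, a transcription factor of the proximal small intestine, had 2.30 CPM against 0 to 1.82, *Mttp*, which loads lipid onto apolipoprotein B, had 6.06 against 0.484 to 5.64, and *Apoa1*, an apolipoprotein gene, had 3.13 against 0 to 5.89. The summed level of the 9 small intestine enterocyte markers was 723 CPM in SV395, above every other mouse. It was 340 to 709 in controls and at most 713 in the other *Bmal1*IEC-/- mice. The largest parts of the sum in SV395 were *Fabp2* at 449 CPM and *Apob* at 208. Of that list *Apoa4* was at 0 in SV395 and *Lct* at 2 counts, where the medians of the other mice were 0 and 1. *Sis* (17.1 CPM), *Rbp2* (8.36) and *Slc10a2* (266) were not among the highest in SV395, ranking 26, 29 and 22 of 48. These 3 genes were lower in *Bmal1*IEC-/- colon over all times. SV395 also had the highest *Slc51a* of all 48 mice, at 232 CPM, and the *Slc51a* call at CT13 held without it. The part of such RNA in the *Fabp6* difference was not tested.

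**Figure D3:**
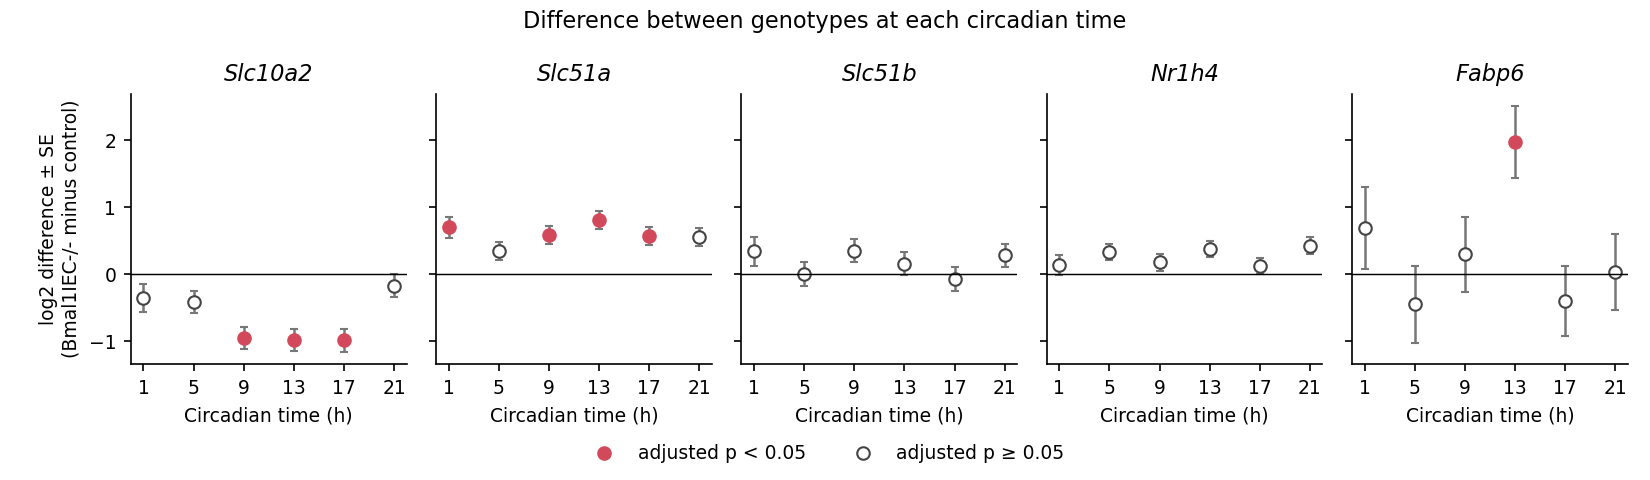
Log2 difference (*Bmal1*IEC-/- minus control, ± SE) at each circadian time for the 5 tested members, filled red where the edgeR adjusted p was under 0.05 and open otherwise. *Slc10a2* lies below 0 at all 6 times with its largest values at CT9, CT13 and CT17, *Slc51a* lies above 0 at all 6, and the filled *Fabp6* point at CT13 rests on mouse SV395.

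Because *Slc10a2* fell and *Slc51a* rose, their ratio within a mouse, which does not depend on library size, separated more mice by genotype than *Slc10a2* or *Slc51a* alone. The ratio of *Slc10a2* to *Slc51a* read counts ran from 1.42 to 5.26 with a median of 2.62 in controls and from 0.634 to 1.92 with a median of 1.13 in *Bmal1*IEC-/- mice. Of 24 controls 21 lay above every *Bmal1*IEC-/- mouse, and the groups did not overlap at 5 of 6 times, CT21 being the exception. The ratio was furthest apart at CT13, where controls ran from 3.39 to 3.99 and *Bmal1*IEC-/- mice from 0.795 to 1.23, and at CT17 *Bmal1*IEC-/- mice had their lowest values, 0.634 to 0.837. The ratio of *Slc51a* to *Slc51b*, the subunits of 1 transporter, had a median of 4.05 in controls (3.01 to 5.63) and 5.44 in *Bmal1*IEC-/- mice (4.30 to 7.71), without overlap at 3 of 6 times. Both counts of times include CT1, which had 2 *Bmal1*IEC-/- mice. The ratios were chosen after the genes were seen to differ and are given without a test. How often other pairs of genes separate in this way was not computed.

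**Figure D4:**
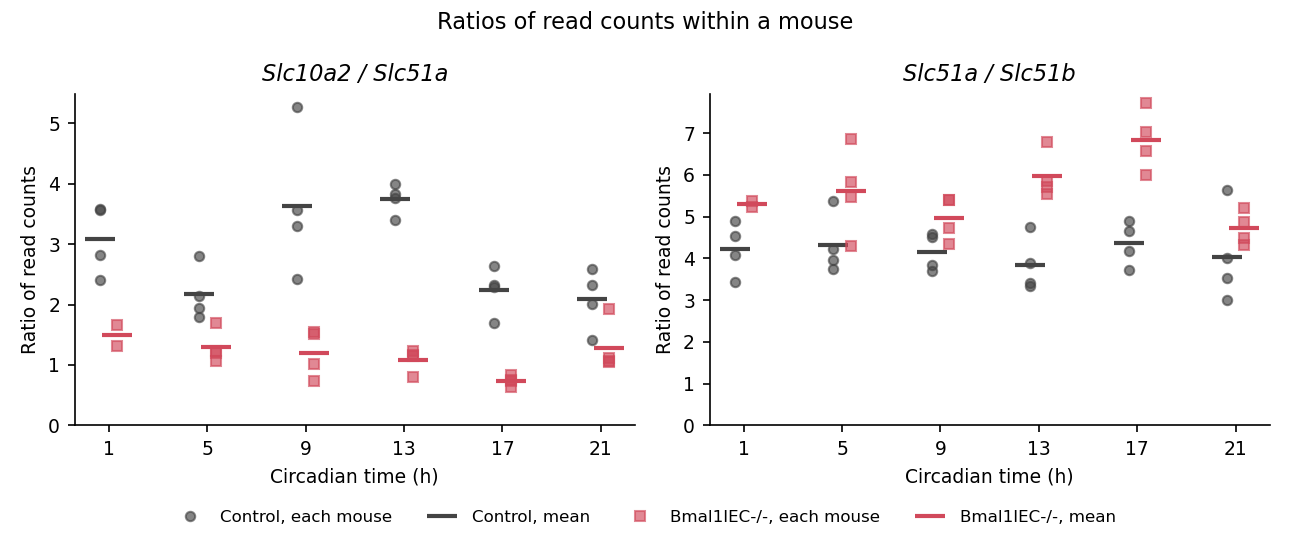
Ratio of read counts within each of the 46 mice against circadian time in hours, *Slc10a2* to *Slc51a* on the left and *Slc51a* to *Slc51b* on the right, with controls as grey circles, *Bmal1*IEC-/- mice as red squares and group means as bars. In the left panel the genotypes overlap at CT21 and at no other time, and at CT17 the *Bmal1*IEC-/- mice lie between 0.634 and 0.837.

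Rhythms were tested in each genotype with JTK_cycle, whose adjusted p covers the 12 phases tried for a gene and not the number of genes. In controls 3 of the 8 members were rhythmic, against 24.1% of 32471 genes with at least 1 read. That background holds many genes too low to be kept for testing, whereas the 3 rhythmic members were kept. An edgeR cosine F test, at adjusted p under 0.05, called the same 3 members and 7352 of the 15073 tested genes. *Slc10a2* peaked at CT10 (JTK_cycle adjusted p = 8.42e-05, n = 24), *Nr1h4* at CT10 (0.0178) and *Slc51a* at CT8 (0.0358), whereas *Slc51b* did not pass (0.439). In a cosine fit *Slc10a2* oscillated around 1308 normalized counts with an amplitude of 434, which is 33.2% of its mean, *Slc51a* had a relative amplitude of 12.7%, *Nr1h4* of 11.4%, with *Slc51b* between those. *Slc10a2* was thus the member with the widest daily swing, from a mean of 793 at CT21 to 1775 at CT13.

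In *Bmal1*IEC-/- colon 2 of the 8 members were called rhythmic, against 14.2% of genes. The edgeR cosine F test called the same 2 members and 3365 of the 15073 tested genes. *Slc10a2* kept an adjusted p of 0.0318 with a peak at CT6, an amplitude of 167 around 813 normalized counts and a lowest mean of 537 at CT17, and *Slc51a* had 0.0140 with a peak at CT12, an amplitude of 109 and a mean from 568 at CT21 to 829.7 at CT13. *Nr1h4* and *Slc51b* each had an adjusted p of 0.0798, with peaks at CT10 and CT8. The change of rhythm between genotypes, tested directly, was called in 0.935% of tested genes and in none of the 5 members by edgeR. *Slc10a2* came nearest, with an unadjusted p of 0.0127 and an edgeR adjusted p of 0.299 (0.0622 with all 48 mice, 0.145 with time as 6 levels and 0.278 by DESeq2), and the adjusted p of the other 4 was 0.716 or more. Passing in 1 genotype and not in the other, as *Nr1h4* did, is therefore not shown to be a difference.

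Several rhythm calls rested on single mice. In controls *Slc51a* lost its call without any 1 of SV396, SV398, SV401, SV420, SV434, SV441, SV442, SV443 or SV476 (JTK_cycle adjusted p 0.0571 to 0.109), and *Nr1h4* without SV420 or SV441 (0.0571 for either). In *Bmal1*IEC-/- colon *Slc10a2* lost its call without any 1 of SV399, SV416, SV437, SV445, SV448, SV449, SV470, SV471 or SV481 (0.0560 to 0.0984). *Nr1h4* gained a call without SV410, SV444 or SV471 (0.00599 to 0.0460) and *Slc51b* without SV471, SV477 or SV478 (0.0197 to 0.0304). The *Slc51a* rhythm in *Bmal1*IEC-/- colon held without any 1 of the 22 mice (at most 0.0460), but its adjusted p was 0.273 with SV384 and SV385 included. The control rhythm of *Slc10a2* held in all 24 such tests (at most 0.000358).

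Across mice the members moved together in part. Over the 46 mice, which share genotype, time of day and library preparation as sources of correlation, *Slc51a* and *Slc51b* correlated at Pearson's r = 0.62 in log2 CPM, with 0.67 in the 24 controls and 0.60 in the 22 *Bmal1*IEC-/- mice. *Slc10a2* and *Nr1h4* had r = 0.04 over all 46 but 0.66 in controls and 0.53 in *Bmal1*IEC-/- mice. *Slc10a2* and *Slc51a* had r = -0.36 over all and 0.31 and 0.18 within the genotypes. These values are descriptions.

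Among all tested genes, the patterns most like *Slc10a2* over the 46 mice were those of the sulfate transporter gene *Slc13a1* (r = 0.82), *Abcb1a*, which encodes the efflux pump P-glycoprotein (0.81), and the taurine transporter gene *Slc6a6* (0.79), and the correlation was at least 0.57 within each genotype for all 3. Nearest to *Slc51a* were *2610528A11Rik* (0.86), the goblet cell lectin gene *Zg16* (0.79) and *Ggh*, which encodes gamma-glutamyl hydrolase (0.79). *Ggh* had r = -0.12 in controls alone. *Nr1h4* was closest to *Ociad2* (0.71), *Endod1* (0.68) and *Papss2* (0.68), a gene of sulfate activation. *Slc51b* was closest to *Pdzd3* (0.65), *Mall* (0.65) and *Cds1* (0.63), and *Fabp6* to *Nsun2* (0.58), *Ltv1* (0.52) and *Apobec1* (0.50). These genes were picked as the highest correlations among all tested genes, without a test. *Fabp6* had low counts and the weakest of these correlations, so a shared pattern is not shown for it.

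A list of 30 other genes of bile acid transport, sensing and metabolism gave 22 that could be tested. Of these 2 were called higher in *Bmal1*IEC-/- colon and 1 lower, against 102 higher and 107 lower among 15073 genes, and the list's median log2 difference was 0.02. The list was chosen with earlier results of these data known, so these counts do not test it as a set. *Cyp3a11*, a cytochrome P450 that hydroxylates bile acids and drugs, rose from 6.22 ± 4.59 (SD, n = 24) to 41.0 ± 20.7 normalized counts (n = 22), a log2 difference of 2.72 (SE 0.23, edgeR adjusted p = 8.32e-13). *Abcg2*, an apical efflux transporter, rose from 512 ± 162 to 799.5 ± 112 (log2 difference 0.73, SE 0.062, edgeR adjusted p = 1.14e-12). *Abcc2*, the apical conjugate exporter MRP2, fell from a mean of 25.8 to 8.11 normalized counts (log2 difference -1.56, SE 0.17, edgeR adjusted p = 1.32e-09).

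Under the fold threshold, *Abcb1a* (log2 difference -0.57, edgeR adjusted p = 8.42e-09) and the bile acid and vitamin D receptor gene *Vdr* (-0.29, edgeR adjusted p = 5.67e-08) were lower. The remaining 17 tested genes did not pass, among them *Abcc3*, a basolateral exporter of conjugated bile acids (0.06, edgeR adjusted p = 0.523), the FXR partner *Rxra* (-0.11, edgeR adjusted p = 0.121) and the xenobiotic receptor *Nr1i2* (-0.02, edgeR adjusted p = 0.835). Among genes of bile acid synthesis, *Cyp7a1* reached at most 1 count and *Cyp8b1* 4, whereas *Cyp27a1* had means of 194 and 182 normalized counts and *Cyp39a1* of 96.6 and 92.3 in controls and *Bmal1*IEC-/- mice. *Slc10a1*, the hepatic uptake transporter, reached at most 6 counts.

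**Figure D5:**
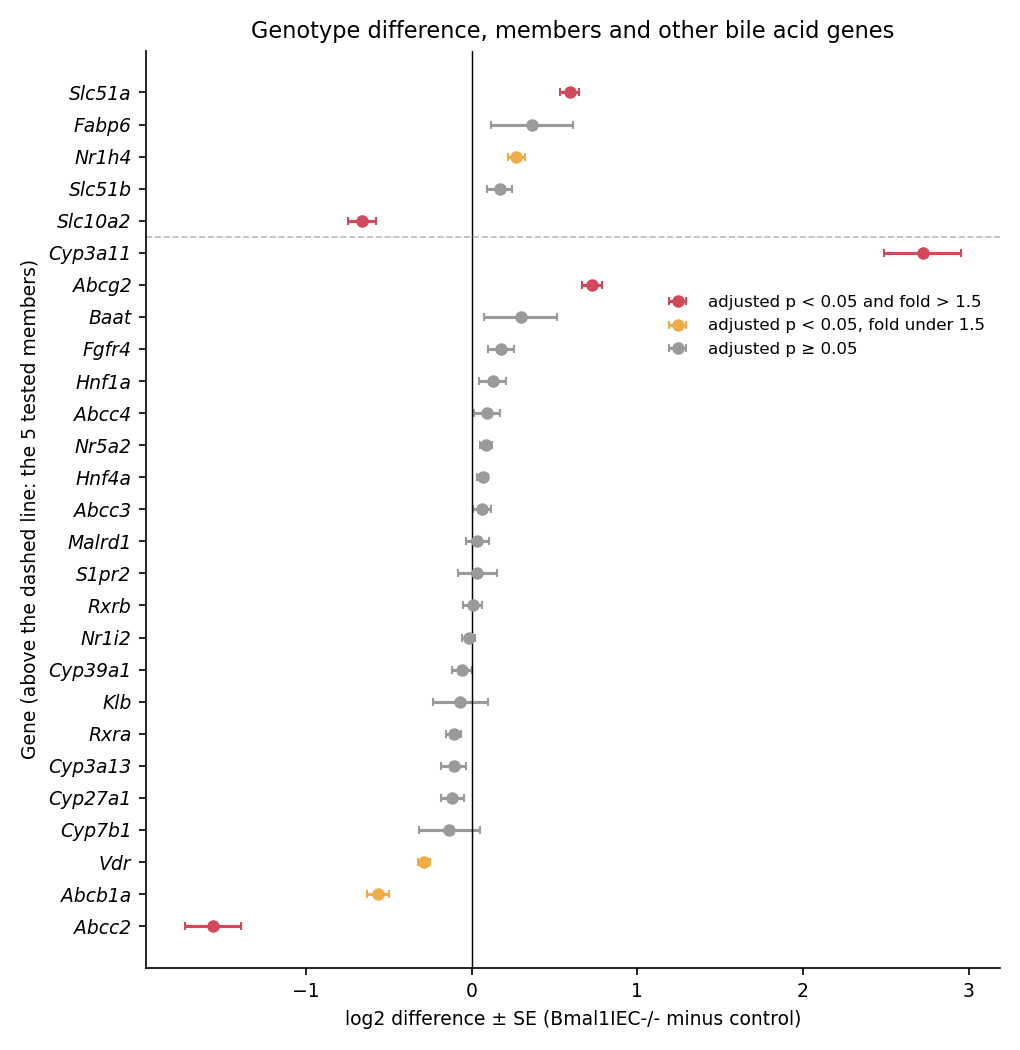
Log2 difference (*Bmal1*IEC-/- minus control, ± SE) over all times for the 5 tested members, above the dashed line, and the 22 tested genes of the list of other bile acid genes, below it. Red points passed adjusted p and fold change, yellow points passed adjusted p under the fold threshold, and grey points passed neither. *Cyp3a11* lies furthest to the right at 2.72 and *Abcc2* furthest to the left at -1.56.

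Markers of other cells and positions were examined beside these differences. Of 6 colon epithelium markers *Slc26a3* was called lower (log2 difference -0.77, edgeR adjusted p = 1.08e-09) and *Epcam* was lower under the fold threshold (-0.10, edgeR adjusted p = 0.00760), while the list summed to 10571 to 15930 CPM in controls and 10975 to 15832 in *Bmal1*IEC-/- mice. Of 5 smooth muscle markers *Myh11* (-0.16, edgeR adjusted p = 0.0387) and *Cnn1* (-0.24, edgeR adjusted p = 0.0184) were lower under the fold threshold, with sums of 2904 to 4481 and 2584 to 4427. Of 9 small intestine enterocyte markers *Sis* (-2.89, edgeR adjusted p = 5.97e-23) was called lower, *Rbp2* (-0.48, edgeR adjusted p = 0.000174) was lower under the fold threshold and *Alpi* (0.64, edgeR adjusted p = 0.000174) was called higher. Of 6 enteroendocrine markers *Chgb* alone passed (0.37, edgeR adjusted p = 2.10e-07), and the list summed to 853 to 1231 CPM in controls and 1005 to 1508 in *Bmal1*IEC-/- mice.

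None of 6 macrophage markers passed by edgeR, with sums of 128 to 193 and 108 to 216. The 5 liver markers had a median sum of 1.91 CPM in controls and 2.33 in *Bmal1*IEC-/- mice, and the 4 distal hindgut *Hox* genes summed to at most 4.67 CPM, too low to place the tissue along the gut. *Car1*, a carbonic anhydrase gene of colon epithelium, had a mean of 39792 normalized counts in controls and 39761 in *Bmal1*IEC-/- mice. The part of cell makeup in the differences of *Slc10a2* and *Slc51a* was not tested.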

How the data were processed

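Colon tissue RNA of 48 mice was sequenced as stranded mRNA libraries with paired reads. The deposited values are raw read counts per gene, made by the authors with FastQC 0.11.5, Trimmomatic 0.39, STAR 2.7.5c on mm10, SAMtools 1.3.1 and featureCounts 1.4.6, which kept exon reads of sufficient mapping quality that were not chimeric and did not overlap several features. The strand setting and annotation release are not given in the sources used here. DESeq2 1.22.0 is also named in the submitters' processing notes. Identifiers were matched to GENCODE vM21 (55141 of 55401 found). The members and lists were chosen with earlier results of these data known, and the named genes are the 8 members, the deleted gene and its targets *Nr1d1* and *Dbp*, called genes of the list of other bile acid genes and the 3 best correlated genes of each tested member. *Dbp* had a log2 difference of -0.88 (edgeR adjusted p = 7.48e-06).

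Which 46 mice the study analysed was read from size factors: among all 48 and every pair of CT1 *Bmal1*IEC-/- mice left out, leaving out SV384 and SV385 came closest to the control values the study tabulated. In the 72 pairs of mice of 1 group, the chi-square per degree of freedom was 2.01 to 16.3, so no pair agreed within sampling noise. Differences were tested with edgeR 4.0.16 (TMM, filterByExpr, quasi-likelihood F test, Benjamini-Hochberg over 15073 genes) with time as covariate, at single times with 1 mean per group, and for a change of rhythm with genotype by cosine and sine of a 24 h period. Normalized counts were obtained by dividing each library by its DESeq2 1.42.0 size factor. Rhythms used an implementation of JTK_cycle with an exact null distribution and 12 phases in steps of 2 h, two-sided. Correlations used log2 CPM with a prior count of 2. The tests of genotype difference and of change of rhythm, and JTK_cycle, were tried on simulated data, whereas the contrasts at single times were not. Counts of 0 and floors cover counting error only. Alternatives were all 48 mice, DESeq2, RLE normalization, no filter, adjusted p alone, CPM in JTK_cycle, a cosine F test, time as 6 levels and each mouse left out, the last for single times chosen after seeing the data. Fits without a mouse and over 48 mice kept the same 15073 genes.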

Additional observations from a re-analysis of the deposited data

Results flagged for a closer look

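Of 55 groups of 4 mice examined among the 5 tested members, 4 held a mouse far from the other 3 by Dixon's criterion (a gap above 0.829 of the group's range), where chance gives about 1 in 20. *Fabp6* was 62.2 normalized counts in *Bmal1*IEC-/- mouse SV395 of CT13, against 6.17 to 9.29 in the other 3. *Nr1h4* was 470.4 in control SV468 of CT1, below 562 to 575, and 723 in control SV421 of CT13, above 558 to 583. *Slc51a* was 489 in control SV469 of CT1, above 387 to 402.

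The *Bmal1*IEC-/- mice SV384 and SV385 of CT1, which the main tests leave out, lay above all 4 CT1 controls in 3 members when counts were scaled over 48 mice. *Slc51a* was 878 and 840.3 against 384 to 485, *Slc51b* was 170.5 and 164 against 80.8 to 119, and *Nr1h4* was 662 and 664 against 466 to 569.6. In these genes the other 2 *Bmal1*IEC-/- mice of CT1 had 619 to 739, 118 to 138 and 589 to 609.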

How the results depend on the processing

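The call of *Slc10a2* over all times held in every alternative run (log2 difference -0.69 to -0.63 without single mice), and that of *Slc51a* in all except 9 of the 46 fits without 1 mouse. Members called over all times ranged from 1 to 2 without single mice, members rhythmic in controls from 1 to 3, and in *Bmal1*IEC-/- mice from 1 to 3. With all 48 mice 1 member was rhythmic in *Bmal1*IEC-/- colon. Without the filter on low counts *Slc10a2* at CT5 (adjusted p = 0.00559), *Slc51a* at CT21 (1.8e-05) and *Nr1h4* at CT13 (0.00554) and CT21 (0.00456) were also called, and with RLE normalization *Slc51a* at CT21 (0.0476). DESeq2 gave no adjusted p for the change of rhythm of *Fabp6*. No call turned its direction.

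Over all genes, the genotype difference called 209 genes, 319 without the filter and 1590 at adjusted p alone. The change of rhythm called 141 genes, 298 with all 48 mice and 76 with time as 6 levels. Single times called, without the filter, 621 genes at CT1, 224 at CT5, 456 at CT9, 349 at CT17 and 302 at CT21, and with all 48 mice 3653 at CT1. Without single mice the count ran from 16 to 293 at CT1 (lowest without SV479, which leaves 1 *Bmal1*IEC-/- mouse at that time, and highest without SV469), from 37 to 72 at CT5 and from 400 to 750 at CT13. The contrasts of 1 mouse at CT1 have less information by construction, and the cause of the other shifts was not tested. No paired analysis was possible because no mouse number is shared between groups. Depth limits *Nr0b2*, *Fgf15* and *Gpbar1*, and *Fabp6* at 3 to 18 counts in 47 mice.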
